A study of Mus musculus with 6 samples.

Results

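The genes described here are the 3 alpha subunits of the hypoxia-inducible transcription factors (HIF), their common partner Arnt, the 3 prolyl hydroxylases that read oxygen, the ubiquitin ligase adaptor Vhl and the asparaginyl hydroxylase Hif1an. They were chosen by gene name, 9 of the 53647 genes in the deposited table. For a symbol listed more than once the row with the largest summed count was to be taken, but each of the 9 symbols had 1 row, so no measured value decided which row was used. The set was put together with earlier results of these libraries known, so its values describe the genes and give no independent evidence about the pathway. Expression was measured by RNA sequencing in 3 libraries of Cxcr4+ and 3 libraries of Cxcr4- macrophages, sorted by expression of the chemokine receptor Cxcr4 from orthotopic pancreatic ductal adenocarcinoma (PDAC) models in C57BL/6 mice. The labels list Cxcr4+ and Cxcr4- as genotypes, but the treatment text describes a sort of cells and names no engineered allele, and both populations came from the same kind of tumour model. No age, no tumour line and no number of mice is given, and the labels do not tell if replicate libraries stem from different animals. The p-values then reflect only how these libraries vary, which may be technical.

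HIF proteins are pairs of an oxygen-regulated alpha subunit and the constitutive beta subunit Arnt. When oxygen is present, prolyl hydroxylases of the Egln family modify the alpha subunit, the VHL ubiquitin ligase then recognises it, and the proteasome destroys it; Hif1an adds a further hydroxyl group that blocks the recruitment of coactivators. When oxygen is short, the alpha subunit persists, enters the nucleus and pairs with Arnt. The pair switches on genes of glycolysis, angiogenesis and iron handling, among them Egln1 and Egln3 themselves and, in several cell types, Cxcr4. Macrophages in poorly perfused tumours are a known site of HIF activity, and inflammatory signals also raise Hif1a transcription in these cells. Because the pathway is controlled mainly through protein stability, RNA levels of the members other than Egln1 and Egln3 do not report its activity. RNA of Egln1 and Egln3 can respond to HIF, but HIF activity was not measured here.

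The RefSeq promoter table (build GRCm38.p6) held windows for 8 of the 9 genes, with no entry for Epas1. Each window was the 250 bases before an annotated transcription start, and Egln2 had 2 of them, which makes 9 windows. The core letters of the HIF response element, ACGTG or GCGTG, were searched on both strands. They occurred in 7 of the 9 windows, and in 38.6% of all 32851 windows of the same length. The windows of Hif3a, Egln1 and Egln3 are shown because Hif3a had the clearest separation between the sorted populations, and Egln1 and Egln3 are paralogs whose mean levels differed in opposite directions. Capitals mark the letters found, on whichever strand, and each sequence runs 5′ to 3′ along the gene's strand, which is the reverse strand for all of them. The Hif3a window is chr7:17062428-17062677, that of Egln1 is chr8:124949255-124949504 and that of Egln3 is chr12:54203875-54204124.
Hif3a: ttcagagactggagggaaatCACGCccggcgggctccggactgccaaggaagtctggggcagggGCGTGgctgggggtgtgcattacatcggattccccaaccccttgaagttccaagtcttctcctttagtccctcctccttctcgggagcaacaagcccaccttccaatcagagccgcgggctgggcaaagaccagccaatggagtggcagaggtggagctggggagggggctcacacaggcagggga
Egln1: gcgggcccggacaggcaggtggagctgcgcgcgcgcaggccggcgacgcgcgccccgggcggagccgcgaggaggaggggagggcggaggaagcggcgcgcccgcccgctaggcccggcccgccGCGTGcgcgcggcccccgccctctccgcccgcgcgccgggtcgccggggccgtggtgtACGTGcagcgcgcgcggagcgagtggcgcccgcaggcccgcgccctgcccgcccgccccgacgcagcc
Egln3: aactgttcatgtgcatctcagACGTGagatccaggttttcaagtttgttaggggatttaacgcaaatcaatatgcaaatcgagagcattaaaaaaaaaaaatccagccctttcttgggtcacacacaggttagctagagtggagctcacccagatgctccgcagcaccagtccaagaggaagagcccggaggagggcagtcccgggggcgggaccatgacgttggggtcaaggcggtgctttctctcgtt
Hif3a had 2 matches, both of GCGTG, Egln1 had 1 of each kind and Egln3 had 1 of ACGTG, which occurred in 16.6% of all windows on either strand. GC content was 86.0% in the Egln1 window, against 62.0% for Hif3a and 50.8% for Egln3. A match describes these letters only and does not mark a bound site. Nothing about HIF binding was measured here.

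The libraries held 46444934 to 55740671 estimated counts, and each Cxcr4+ library held more than any Cxcr4- library. Levels are given in FPKM (fragments per kilobase of transcript length, scaled to library size). Cxcr4 RNA itself stood at 9.18, 9.04 and 9.59 FPKM in Cxcr4+ libraries and 8.56, 5.97 and 7.73 in Cxcr4- libraries (log2 fold change 0.27, SE 0.19, edgeR adjusted p = 0.999). These values did not overlap, and they check the sort only weakly. Of 12 macrophage identity genes, 9 had a mean of at least 1 FPKM, among them Lyz2, Cd68, Cd14, Csf1r and Adgre1. Mrc1, C1qa and C1qb stayed below 1 FPKM on average. Markers of other cells had a summed level of at most 1.69 FPKM in any library for 12 endothelial genes, 0.667 for 10 lymphocyte genes, 10.2 for 10 neutrophil genes, 6.85 for 12 tumour and ductal epithelial genes and 17.96 for 12 fibroblast and matrix genes. The epithelial sum was lower in each Cxcr4+ library than in any Cxcr4- library. The fibroblast sum was higher in each Cxcr4+ library, most of all in replicate 1 and only narrowly in replicate 2 (3.62 against at most 3.49 FPKM). Single fibroblast genes did not all follow the sum: Col1a1 stood at 0.527 FPKM in Cxcr4+ replicate 2 and at up to 1.34 in Cxcr4- libraries. The libraries numbered 2 of both groups differed from the other 4 over the whole table, several of the genes described below included.

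All 9 genes were detected in every library and passed the filter on low counts. Hif1a had the highest level per transcript length, 19.98 ± 2.62 FPKM over all libraries (SD, n = 6), which is above 86.6% of all tested genes. It was followed by Arnt at 9.34 ± 0.467 FPKM, Egln2 at 7.55 ± 0.636, Vhl at 5.33 ± 1.35 and Egln1 at 4.13 ± 0.393. Lower levels were found for Hif1an at 2.31 ± 0.391 FPKM, Epas1 at 2.23 ± 0.390, Hif3a at 1.35 ± 0.567 and Egln3 at 0.316 ± 0.206. The ranges of Hif1a, Arnt and Egln2 did not touch each other, so this part of the order held in all 6 libraries. Egln2 and Vhl overlapped, as did Vhl and Egln1, Hif1an and Epas1, and Epas1 and Hif3a. Hif1an was above Epas1 in 3 of 6 libraries, so these neighbours had no order. Egln3 was below every other member in every library. It rested on 12 to 91 counts a library, where the other 8 genes had 319 to 8894.

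**Figure D1:**
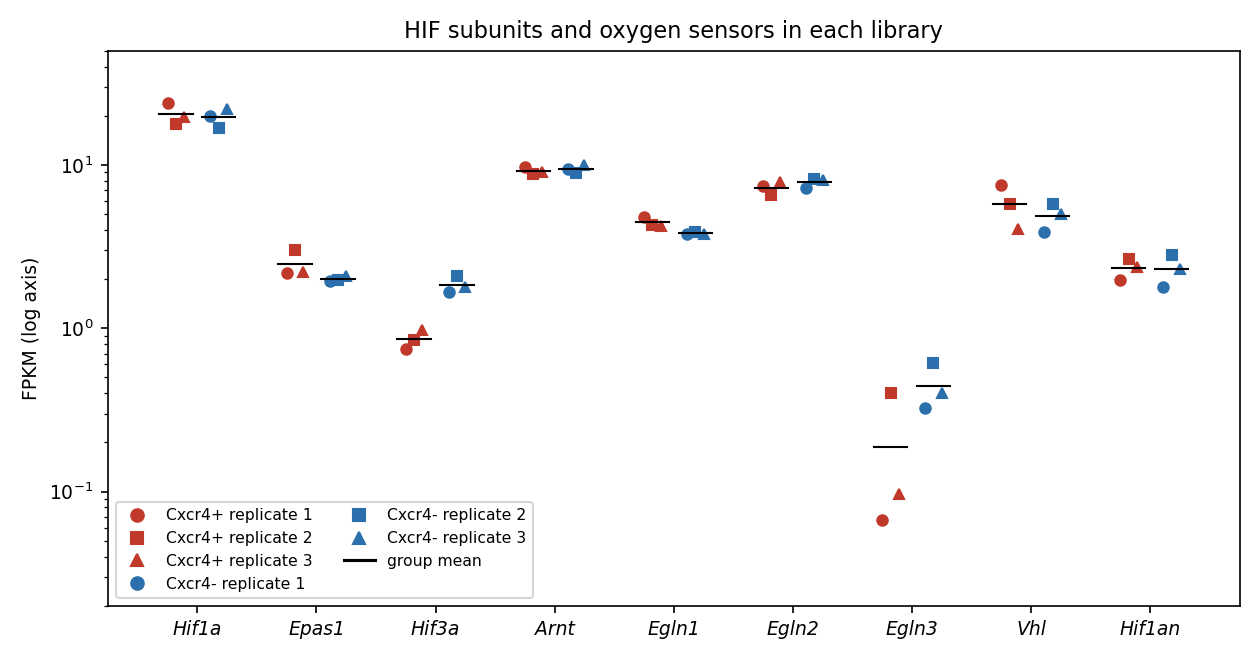
Level of each gene in FPKM (log axis) in the 3 Cxcr4+ (red) and 3 Cxcr4- (blue) libraries, 1 point per library with the shape giving the replicate number and a black bar for the group mean. Hif1a lies highest at 16.8 to 23.9 FPKM and Egln3 lowest, and the Hif3a points of the groups are apart.

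Between the sorted populations, 0 of the 9 genes passed an adjusted p of 0.05 in edgeR's quasi-likelihood test, in which 0.0312% of the 16031 tested genes passed (5 genes; blocking on the replicate number left 0). At an unadjusted p under 0.05 there was 1 member, Hif3a, beside 4.85% of all tested genes. DESeq2, the other count tool used, passed 1 member, again Hif3a, and 0.405% of all tested genes. The log2 fold change was positive for 5 members and negative for 4, with a median of 0.02, and 50.1% of all tested genes were positive. The groups did not overlap for 3 members, Epas1, Egln1 and Hif3a, while 10.4% of tested genes showed such a separation. In the higher direction this was 2 members beside 5.5% of tested genes, and in the lower direction 1 member beside 4.87%.

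**Figure D2:**
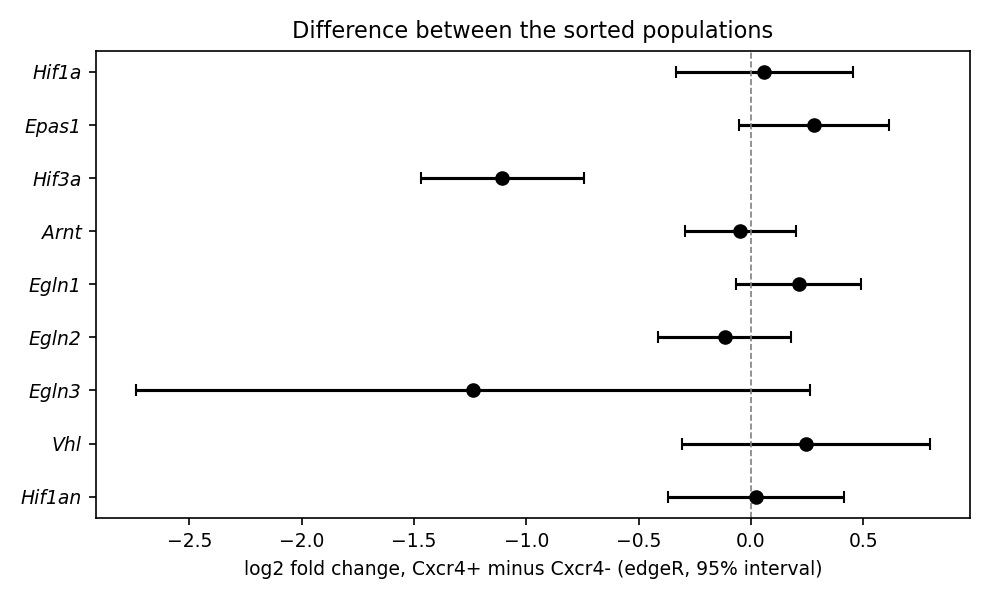
Log2 fold change of each gene, Cxcr4+ minus Cxcr4-, from edgeR (points) with its 95% interval (bars); the dashed line marks no difference. The interval of Hif3a, -1.47 to -0.75, lies below 0 and the intervals of the other 8 genes include 0.

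Hif3a, the least studied alpha paralog, gives rise in mouse to a splice form that lacks a transactivation domain and inhibits HIF. It stood at 0.751, 0.844 and 0.974 FPKM in Cxcr4+ libraries and at 1.67, 2.09 and 1.79 FPKM in Cxcr4- libraries. The highest Cxcr4+ value was well under the lowest Cxcr4- value, and the counts behind them were 319, 334 and 387 in Cxcr4+ against 638, 784 and 630 in Cxcr4- libraries. The mean was 0.856 ± 0.112 FPKM in Cxcr4+ and 1.85 ± 0.217 FPKM in Cxcr4- libraries (SD, n = 3 each), a ratio of 0.463. Its edgeR log2 fold change was -1.11 (SE 0.15), which missed the threshold over all genes (edgeR adjusted p = 0.183), as the 12th smallest p of the table. In DESeq2 it passed (log2 fold change -1.11, adjusted p = 4.12e-07). An exact two-sided permutation test of the FPKM values gave p = 0.1, and no smaller p is possible with 3 libraries a side. Lower RNA in a sorted population cannot be told apart here from fewer cells that carry it.

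The size of the Hif3a log2 fold change was above that of 99.4% of the 11124 tested genes that averaged 1 FPKM or more. Leaving out any 1 library gave -1.23 to -1.03, and the difference in the 4 libraries not numbered 2 was -1.01. The summed level of tumour and ductal epithelial markers was also lower in Cxcr4+ libraries, by a narrow margin. Over 12 genes it was 1.84, 3.39 and 3.49 FPKM in Cxcr4+ libraries and 3.82, 6.62 and 6.85 FPKM in Cxcr4- libraries. Of the 12 genes, 11 had a mean under 1 FPKM. Single genes did not all follow the sum: Muc1 stood at 0.507 FPKM in Cxcr4+ replicate 3 and at 0.188 in Cxcr4- replicate 3. Krt8, Krt7 and Cdh1 overlapped between the groups, while Lgals4 and Epcam did not. The part of these markers in the Hif3a difference was not tested. The counts summarise 4 annotated transcripts, so splice forms were not resolved, and the overlapping gene on the opposite strand, 4833404L02Rik, had at most 12 counts in a library.

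Hif1a, the principal oxygen-regulated subunit, differed between the populations by less than the spread between libraries. It had 23.9, 17.8 and 19.6 FPKM in Cxcr4+ libraries and 19.9, 16.8 and 21.9 FPKM in Cxcr4- libraries, and the groups overlapped throughout. On the log2 scale the fold change was 0.06 (SE 0.17, 95% interval -0.33 to 0.45, edgeR adjusted p = 0.9997), which spans folds of 0.794 to 1.37. Its sign turned without Cxcr4+ replicate 1 (-0.09) and without Cxcr4- replicate 2 (-0.07). In both populations the library numbered 2 was the lowest, while Cxcr4+ replicate 1 held the highest value of the 6.

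Epas1 encodes HIF-2 alpha, the paralog prominent in endothelium and in some tumour macrophages. It had 2.17, 3.0 and 2.20 FPKM in Cxcr4+ libraries and 1.95, 1.98 and 2.08 FPKM in Cxcr4- libraries. Every Cxcr4+ value was above every Cxcr4- value, but by a narrow margin except in Cxcr4+ replicate 2. This made a log2 fold change of 0.28 (SE 0.14, edgeR adjusted p = 0.999) and 0.15 without Cxcr4+ replicate 2. That library also had the highest summed level of the 12 endothelial markers, 1.69 FPKM against 0.988 to 1.30 in the other 5. Single markers were mixed: Cdh5, Kdr, Tek, Emcn and Esam were highest there, while Egfl7, Flt1, Pecam1, Vwf and Tie1 were higher in another library. Of these markers Cldn5 and Sox17 were at 0 in every library and all 12 had a mean under 1 FPKM, and their part in the Epas1 value was not tested.

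Hif1a supplied 82.2 to 89.1% of the summed alpha-subunit FPKM in Cxcr4+ libraries and 80.5 to 85.0% in Cxcr4- libraries. For Epas1 the share was 8.09 to 13.9% (Cxcr4+) and 8.08 to 9.48% (Cxcr4-), and these ranges overlapped. The Hif3a share, 2.80 to 4.27% in Cxcr4+ libraries against 6.95 to 10.02% in Cxcr4- libraries, did not overlap. The ratio of Epas1 to Hif3a was 2.26 to 3.55 in Cxcr4+ libraries and 0.947 to 1.16 in Cxcr4- libraries. The separation of the Hif3a share follows from that of Hif3a itself, and that of the ratio from Epas1 and Hif3a. Neither is a further result. The alpha sum itself was 23.8 ± 2.73 FPKM in Cxcr4+ and 23.4 ± 2.46 FPKM in Cxcr4- libraries (SD, n = 3 each), a smaller difference than the spread.

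Arnt, the common beta subunit, had the smallest spread of the 9 genes, with a coefficient of variation of 4.99% over the 6 libraries. It stood at 9.70, 8.85 and 9.08 FPKM in Cxcr4+ libraries and at 9.50, 8.92 and 10.01 FPKM in Cxcr4- libraries. The groups overlapped, and the log2 fold change was -0.05 (SE 0.11, 95% interval -0.29 to 0.20). The summed alpha level was 2.44 to 2.77 times that of Arnt in Cxcr4+ libraries and 2.34 to 2.58 times in Cxcr4- libraries.

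Egln1 encodes the prolyl hydroxylase that sets HIF alpha stability in most normoxic cells. It had 4.79, 4.31 and 4.23 FPKM in Cxcr4+ libraries and 3.79, 3.89 and 3.78 FPKM in Cxcr4- libraries, with a gap between the groups and very little spread in the Cxcr4- group. The mean was 4.44 ± 0.307 FPKM in Cxcr4+ and 3.82 ± 0.0616 FPKM in Cxcr4- libraries (SD, n = 3 each). The difference was 0.21 on the log2 scale (SE 0.12, edgeR adjusted p = 0.999), and leaving out 1 library gave 0.14 to 0.27. Egln1 had a single annotated transcript and no overlapping gene in the table.

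Egln2, a constitutively expressed hydroxylase that is not induced by hypoxia, was the most abundant of the 3 per transcript length. It had 7.43, 6.50 and 7.81 FPKM in Cxcr4+ libraries and 7.25, 8.21 and 8.12 FPKM in Cxcr4- libraries. The groups overlapped, and the log2 fold change was -0.12 (SE 0.13). The ratio of Egln2 to Egln1 was 1.51 to 1.85 in Cxcr4+ libraries and 1.91 to 2.15 in Cxcr4- libraries. It was thus lower in each Cxcr4+ library. This ratio carries the separation of Egln1 given above and is no further result.

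Egln3, the hydroxylase most strongly induced by hypoxia in many cells, was close to the limit of detection. It had 0.0672, 0.400 and 0.0959 FPKM in Cxcr4+ libraries and 0.323, 0.612 and 0.401 FPKM in Cxcr4- libraries. Cxcr4+ replicates 1 and 3 were the lowest of all, while Cxcr4+ replicate 2 lay within the Cxcr4- range. Within each of the 3 same-numbered pairs the Cxcr4+ library was the lower. The counts were 12, 63 and 16 in Cxcr4+ libraries and 49, 91 and 56 in Cxcr4- libraries, and fewer fragments may stand behind them, since 43.2% of the values from 1 to 20 in the table were multiples of 4. The log2 fold change was -1.24, with a wide error (SE 0.64; edgeR adjusted p = 0.999), and without Cxcr4+ replicate 2 it was -2.31. In each population the library numbered 2 was the highest. The summed epithelial markers given above for Hif3a were also lower in Cxcr4+ libraries, and their part in this value was not tested.

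Within the summed FPKM of the prolyl hydroxylases, Egln1 supplied 34.8 to 39.0% in Cxcr4+ libraries against 30.6 to 33.3% in Cxcr4- libraries, without overlap. Egln2 made up 58.0 to 64.4% in Cxcr4+ libraries against 63.8 to 66.0% in Cxcr4- libraries. Egln3 made up 0.547 to 3.56% in Cxcr4+ libraries against 2.84 to 4.82% in Cxcr4- libraries. The hydroxylase sum was 11.9 ± 0.583 FPKM in Cxcr4+ and 12.1 ± 0.691 FPKM in Cxcr4- libraries (SD, n = 3 each). The sum differed by less than its spread, while the Egln1 share was higher in each Cxcr4+ library. The separation of this share follows from that of Egln1 itself and is no further result.

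**Figure D3:**
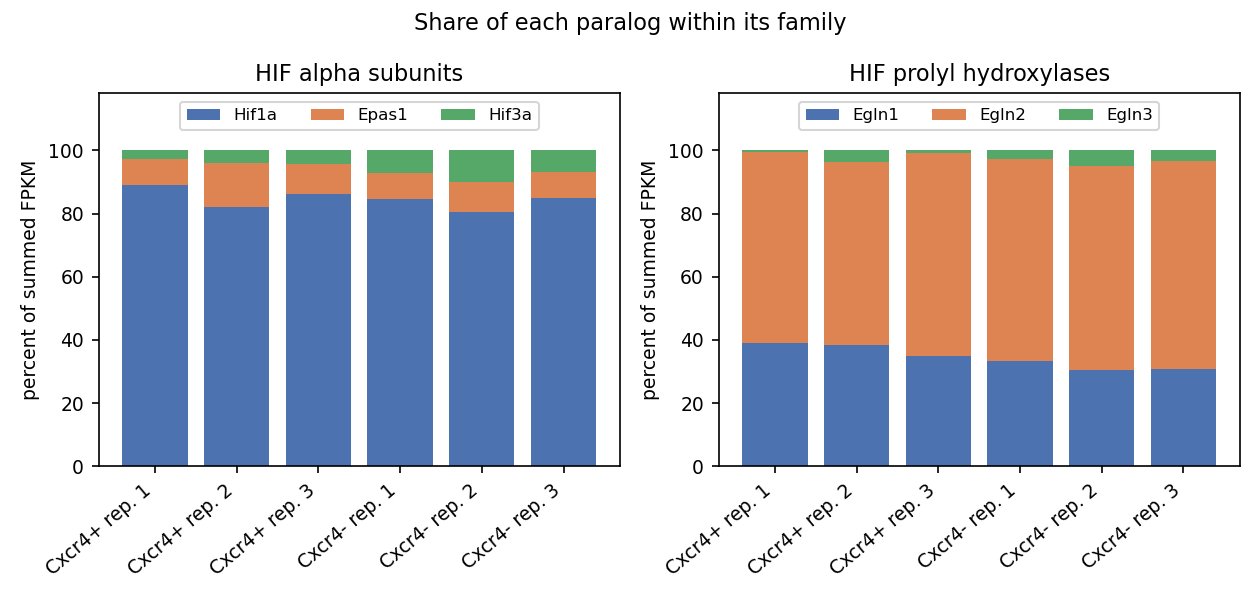
Share of each paralog in the summed FPKM of the alpha subunits (left) and of the prolyl hydroxylases (right), in percent, 1 bar per library with Cxcr4+ libraries first. The Hif3a share is 2.80 to 4.27% in Cxcr4+ libraries against 6.95 to 10.02% in Cxcr4- libraries, and the Egln1 share is higher in each Cxcr4+ library. These separations follow from those of Hif3a and Egln1 themselves.

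Vhl encodes the subunit that recognises hydroxylated HIF alpha in its ubiquitin ligase. It varied more within the groups than between them, with 7.54, 5.74 and 4.04 FPKM in Cxcr4+ libraries and 3.87, 5.76 and 5.01 FPKM in Cxcr4- libraries. The log2 fold change was 0.25 (SE 0.24, 95% interval -0.31 to 0.80) and -0.02 without Cxcr4+ replicate 1. That library had the highest value of Vhl, Hif1a and Egln1 among the 6. It also held the most fibroblast and matrix transcripts, a summed 17.96 FPKM over 12 genes where the other Cxcr4+ libraries had 3.62 and 4.37 and the Cxcr4- libraries 2.43 to 3.49, and the part of these transcripts was not tested.

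Hif1an, the asparaginyl hydroxylase that inhibits the HIF alpha transactivation domain, had 1.98, 2.66 and 2.36 FPKM in Cxcr4+ libraries and 1.78, 2.81 and 2.30 FPKM in Cxcr4- libraries. The groups overlapped almost completely (log2 fold change 0.02, SE 0.17, 95% interval -0.37 to 0.41). The libraries numbered 2 had the highest values in both populations.

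Some members followed the replicate number more than the sort, a split picked after the values were seen. The libraries numbered 2 stood apart over the whole table. Their chi-square per degree of freedom was 15.0 with each other and 18.6 to 29.1 with the other libraries. How many of all tested genes split in this way was not counted, so the split is not shown to be particular to these members. Hif1a was lower in both libraries numbered 2, at 16.8 and 17.8 FPKM, than in the other 4, at 19.6 to 23.9 FPKM. Arnt was likewise lower in them, at 8.85 and 8.92 against 9.08 to 10.01 FPKM, whereas Hif1an was higher, at 2.66 and 2.81 against 1.78 to 2.36 FPKM. With the replicate number as a block the log2 fold changes were -1.11 for Hif3a (edgeR adjusted p = 0.318), 0.27 for Epas1, 0.21 for Egln1 and -1.54 for Egln3. Again 0 members passed. The block gave an SE of 0.087 for Hif1a, 0.058 for Arnt and 0.098 for Hif1an, where the main fit gave 0.168, 0.106 and 0.168. The SE of Vhl rose instead, from 0.236 to 0.254. Hif1a, Arnt and Hif1an were picked for their split by number, so a smaller SE with the block follows from that choice. Over the whole table, 1495 genes had an unadjusted edgeR p under 0.05 with the block and 777 in the main fit. Within the 3 same-numbered pairs, 4 members kept 1 direction throughout, Epas1 and Egln1 higher and Hif3a and Egln3 lower in the Cxcr4+ library, as did 34.3% of all tested genes in either direction.

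**Figure D4:**
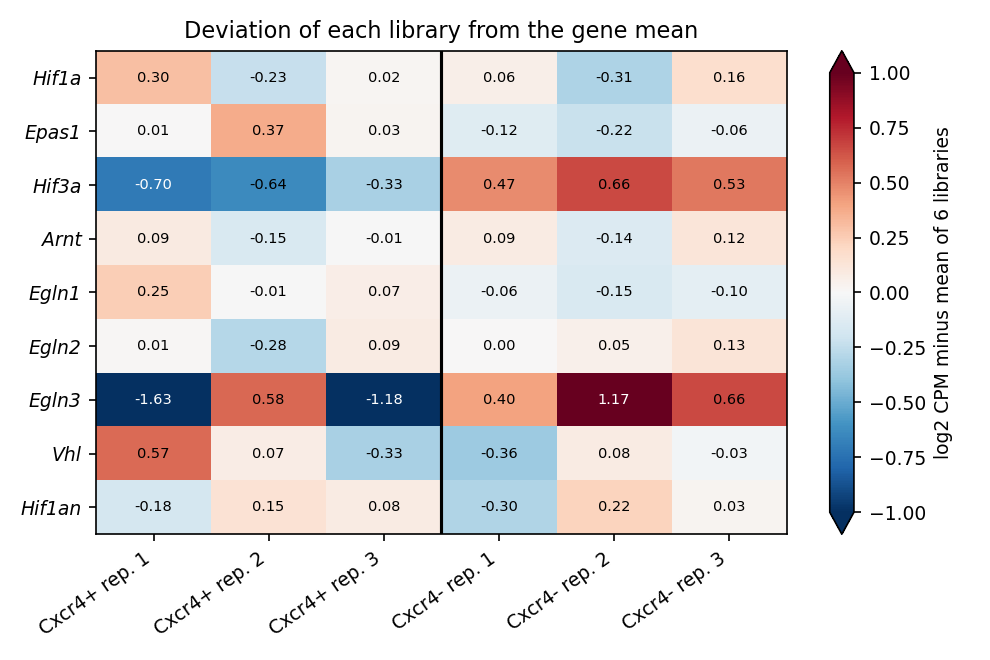
Deviation of each library from the mean of the 6 libraries in log2 CPM, with Cxcr4+ libraries on the left of the line; red is above the mean, blue below, and the colour scale ends at 1. Hif3a is below its mean in all 3 Cxcr4+ libraries and above it in all 3 Cxcr4- libraries, while Hif1a is lowest in the libraries numbered 2.

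The genes whose deviations over the 6 libraries were closest to those of Hif1a were Dennd4c, Commd9 and Abcg1, with root-mean-square differences of 0.0295, 0.0432 and 0.0445 in log2 CPM (library-scaled counts) among 5571 genes of at least 5 FPKM. For Epas1 they were Atraid, Asph and Dpy19l1 (0.0638, 0.0694 and 0.0753). For Egln3 the nearest genes were Ntmt1, Ndrg4 and Abhd4 (0.532, 0.562 and 0.610). The root-mean-square deviation of Egln3 itself was also larger, 1.03 against 0.212 for Hif1a and 0.185 for Epas1. Its distances are therefore not comparable with theirs. Predicted genes and pseudogenes were left out of the comparison. The genes named are the nearest of all those compared, over only 6 libraries. Close profiles can then arise without shared control, which was not tested.

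Other genes of the pathway showed no difference that passed the test. In the list of 16 VHL ligase partners and HIF cofactors, 0 genes were called higher and 0 lower, 5 log2 fold changes were positive and 11 negative, and the median was -0.05, where the median of all tested genes was 0.00041. The groups overlapped for all 16. Elob, a subunit of the VHL ligase, had 42.3 ± 6.82 FPKM in Cxcr4+ and 41.8 ± 5.50 FPKM in Cxcr4- libraries, and its cullin Cul2 had 7.53 ± 0.784 FPKM in Cxcr4+ and 7.82 ± 0.687 FPKM in Cxcr4- libraries (SD, n = 3 each). The 4 expressed members of smallest p were the coactivators Crebbp (log2 fold change -0.26) and Ep300 (-0.17), the chaperone Hsp90ab1 (-0.12), which stabilises HIF alpha, and Rack1 (-0.12), which competes with that chaperone. Cited2, which competes with HIF alpha for these coactivators and is itself a HIF target, was abundant at 217 ± 23.0 FPKM in Cxcr4+ and 227 ± 24.8 FPKM in Cxcr4- libraries. Elob and Cul2 as well as Cited2 were named after their values were seen, as the ligase core and the known antagonist.

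Further oxygen-dependent dioxygenases behaved in the same way, with 0 of 9 tested genes called higher, 0 called lower, 4 positive, 5 negative and a median of -0.05. P4htm, a membrane prolyl hydroxylase, did not pass the filter. The histone demethylase Kdm4a had 4.41, 6.03 and 4.98 FPKM in Cxcr4+ libraries and 5.29, 6.42 and 8.72 FPKM in Cxcr4- libraries (log2 fold change -0.42, SE 0.19, edgeR adjusted p = 0.999). Its paralog Kdm4c had 4.004, 3.52 and 4.02 FPKM in Cxcr4+ and 3.46, 3.43 and 3.42 FPKM in Cxcr4- libraries (0.16, SE 0.12). It was the 1 gene of 9 tested, or 11.1% of the list, whose groups did not overlap, which is near the 10.4% of all tested genes. Jmjd6 and Kdm4b had log2 fold changes of -0.13 and -0.12.

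Of 35 HIF target genes, all tested, 0 were called higher and 0 lower, 16 had positive and 19 negative log2 fold changes, and the median was -0.04. The groups did not overlap for 4 of the 35, which is 11.4% beside 10.4% of all tested genes. These were Cxcr4, on which the cells were sorted, and, lower in Cxcr4+ libraries, Vegfa, Aldoa and Ndrg1, which were named after their values were seen. Vegfa, the vascular endothelial growth factor, had 23.8, 19.6 and 23.8 FPKM in Cxcr4+ and 24.8, 23.9 and 25.2 FPKM in Cxcr4- libraries (log2 fold change -0.14, SE 0.12). The expressed targets of smallest p were the glycolysis regulator Pfkfb4 (-0.61, SE 0.37), hexokinase Hk2 (-0.18, SE 0.12), Cxcr4 (0.27) and the transferrin receptor Tfrc (0.15, SE 0.10), and each had an adjusted p of 0.999 by edgeR. The most positive value, 1.26 for P4ha2, came from a gene at 0.0879 ± 0.0929 FPKM in Cxcr4+ and 0.0343 ± 0.0399 FPKM in Cxcr4- libraries. Levels within the list varied widely: over all libraries 6 targets averaged above 100 FPKM, 17 from 10 to 100, 11 from 1 to 10 and 1 under 1 FPKM. Among the first 6, Ldha, lactate dehydrogenase A, had 311 ± 10.3 FPKM in Cxcr4+ and 296 ± 22.9 FPKM in Cxcr4- libraries, and Pgk1, phosphoglycerate kinase, had 665 ± 13.8 FPKM in Cxcr4+ and 690.0 ± 20.9 FPKM in Cxcr4- libraries (SD, n = 3 each). Ldha and Pgk1 were also named after their values were seen. Kdm3a belongs to both this list and the dioxygenase list.

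**Figure D5:**
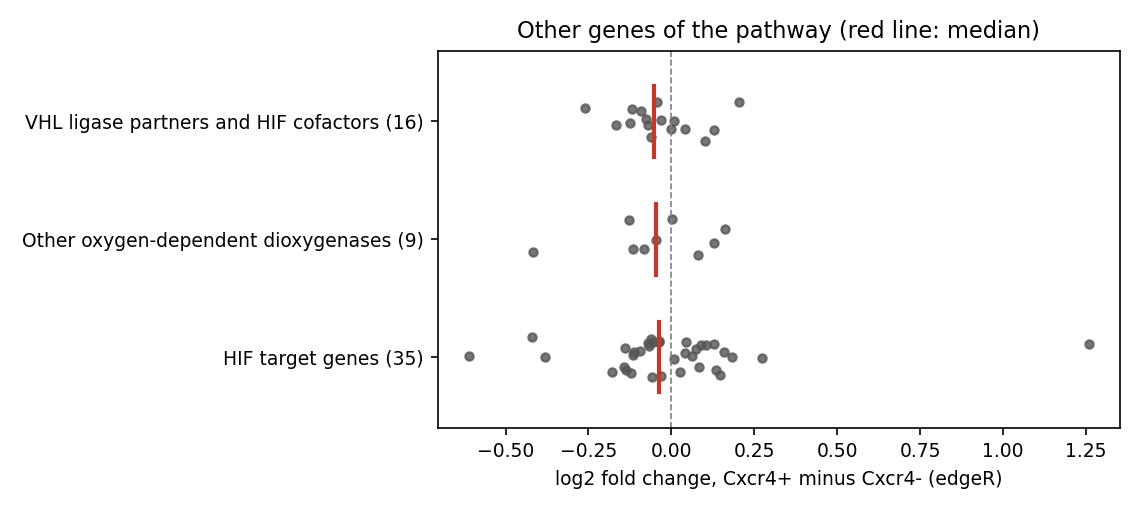
Log2 fold change, Cxcr4+ minus Cxcr4-, of each tested gene (points) in the 3 lists of other pathway genes, with the number of tested genes in brackets and the median as a red line. The medians are -0.05, -0.05 and -0.04, and the point farthest right is P4ha2.

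In GRCm39, the build of the deposited table, Hif1a lies on the forward strand of chromosome 12 at 73948149 to 73994304 and Epas1 on the forward strand of chromosome 17 at 87061128 to 87140838. Hif3a spans 16765432 to 16796352 of chromosome 7 and is read from the reverse strand. Egln1 lies on chromosome 8 at 125635326 to 125676063 and Egln3 on chromosome 12 at 54225767 to 54250646, both on the reverse strand. Of the 9 genes, 5 overlapped another annotated gene, but no such neighbour had more than 86 counts in a library.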

How the data were processed

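RNA of sorted Cxcr4+ and Cxcr4- macrophages was sequenced in 3 libraries each. The submitters' processing notes name cutadapt, HISAT2, StringTie and the build GRCm39. Versions, annotation release, counting settings and strand use: not given in the sources used here. A single table with estimated counts and FPKM for each gene and library was deposited by the authors, per the file headers. The counts were whole, and 43.2% of values from 1 to 20 were multiples of 4, so a count is not always 1 read. Deposited FPKM, scaled by the authors to length and library size, was read as 0 where the count was 0.

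All counts entered edgeR 4.0.16 under R 4.3.3 (quasi-likelihood test, earlier dispersion method, filterByExpr with minimum count 10 and total 15, TMM, group as the sole term). Benjamini-Hochberg adjustment ran over the 16031 genes that passed, and the procedure was tested on simulated data. The standard error is the log2 fold change over the square root of F. No library was a copy of another: for each pair the chi-square was 10.7 to 29.1 times its degrees of freedom, computed after dividing counts by 4. Same-numbered libraries deviated together over 6303 genes above 5 FPKM (correlation of deviations from group means 0.107, 0.165 and 0.194 for numbers 1, 2 and 3). Each was above 0.1, so same-numbered libraries were compared as pairs and the number was run as a block. The labels do not say what the numbers stand for, and the main fit, with its errors and intervals, left them out.

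Members and lists were chosen with earlier results of these data known. Named were all members, Cxcr4, the 4 tested genes of smallest p with at least 1 FPKM in each list, and the 3 genes nearest in profile to Hif1a, Epas1 and Egln3; others are marked. Alternatives were DESeq2 1.42.0, limma-trend (limma 3.58.1) on log2(FPKM + 1) and log2(FPKM + 0.1), other scaling, filters and dispersion method, counts divided by 4, the replicate number as a block and leaving out each library. Leaving out both libraries numbered 2, and a term for them, were added after seeing the data. Promoter windows came from RefSeq on GRCm38.p6. Figures were drawn with matplotlib 3.10.9.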

Additional observations from a re-analysis of the deposited data

How the results depend on the processing

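Beside 2 genes called higher and 3 lower over the whole table, DESeq2 called 28 and 37, the replicate block 0 and 0, limma-trend 2 and 0 on log2(FPKM + 1) and 3 and 1 on log2(FPKM + 0.1), and edgeR's bias-adjusted method and counts divided by 4 each 1 and 3. Leaving out 1 library gave 0 to 5 higher and 0 to 4 lower. The count of members called was 0 under every alternative run except DESeq2, which called 1, Hif3a (log2 fold change -1.11). Beyond these counts, the replicate block changed no call of a member. Over its 17 alternatives Hif3a stayed negative, at -1.23 to -0.62, with the smallest size in limma-trend on log2(FPKM + 1), a pseudocount that shrinks low genes; its adjusted p ran from 4.12e-07 to 0.544. Epas1 and Egln1 stayed positive (0.11 to 0.35 and 0.14 to 0.27), and Egln2 and Egln3 stayed negative (-0.19 to -0.01 and -2.31 to -0.29). Signs turned for 4 members when 1 library was left out, with ranges of -0.086 to 0.18 for Hif1a, -0.12 to 0.014 for Arnt, -0.018 to 0.44 for Vhl and -0.11 to 0.15 for Hif1an; the cause was not tested. The list medians moved by less than the spread between libraries under all 17. For the dioxygenase list that spread, 0.062, was larger than the size of the median itself (-0.046). The sign of this median turned when some single libraries were left out, to at most 0.0034. Depth limits Egln3 most, at 12 to 91 counts a library.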
